A study of Mus musculus with 18 samples.

Results

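miR-210 is the microRNA most closely tied to the response of cells to low oxygen. Under hypoxia, the transcription factor HIF-1 is stabilised and switches on the gene, and the mature strand then lowers iron-sulphur cluster scaffold proteins, slowing mitochondrial respiration, along with the receptor ligand ephrin-A3 and other targets. It is widely used as a readout of hypoxia in tumours, and in epidermis it has also been linked to keratinocyte differentiation. Like other microRNAs it is cut from a hairpin that yields 2 arms, and the members described here are both of them, mmu-miR-210-3p and mmu-miR-210-5p (miR-210-3p and miR-210-5p hereafter), chosen by name as 2 of the 1251 microRNA entries measured.

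The entries came from small RNA sequencing of 18 skin samples of 6 littermate female SKH-1E Hairless mice, an outbred strain without a functional Hairless gene, numbered mouse 2, 3, 7, 8, 9 and 10. All of the mice had received chronic low-dose solar-simulated ultraviolet irradiation from young adulthood, so the skin outside the lesions is irradiated too and the controls are not unexposed skin. Each mouse gave 1 sample of nonlesional chronically UV-exposed skin (CHR), 1 papilloma (PAP) and 1 cutaneous squamous cell carcinoma (cuSCC), so each sample type had n = 6. The lesions were of low grade and held some cells other than tumour cells by histology. The samples were bulk tissue, in which fewer cells of a type and less RNA per cell cannot be told apart. Levels are log2 values of usable reads expressed as ppm (log2 ppm) and quantile normalized, so that each value stands for the place of a microRNA in the order of its own library.

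In the reference the Mir210 hairpin spans 110 bases (GRCm38, minus strand, chromosome 7, 141221384 to 141221493), with 0 other annotated genes overlapping it. Rassf7 ends 2726 bases away on one side and Phrf1 starts 7291 bases away on the other. The mature arms are shown because the seed, bases 2 to 8 and here in capitals, is what a microRNA uses to recognise its targets, and because the arms carry different seeds. The sequences are those of RefSeq on GRCm38.p6, written 5′ to 3′.
miR-210-3p: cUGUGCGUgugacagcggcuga
miR-210-5p: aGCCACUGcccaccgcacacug
The 3p arm, usually the functional one, lies at bases 66 to 87 of the hairpin (chromosome 7, 141221407 to 141221428) and the 5p arm at bases 28 to 49 (141221445 to 141221466). In the predicted fold of the hairpin, 16 base pairs joined one arm to the other. None of the other mature mouse microRNAs in the reference shares either seed (0 for each arm, among 1679 sequences). The longest run of bases that another entry of the table shared with miR-210-3p was 8 and with miR-210-5p 9, among the 1001 of 1251 entries whose name matched a reference sequence. A run of 16 bases of miR-210-3p occurred in annotated transcripts of 1 gene, Mir210 itself, whereas for miR-210-5p it occurred in 2, Mir210 and Fam166b.

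Both arms were detected, that is above the lowest value of the table of 3.32, in all 18 libraries, and both were above 100 ppm in every one. The number of detected entries per library ranged from 200 to 328 in CHR, from 163 to 281 in PAP and from 236 to 365 in cuSCC, and since no read totals were used, depth is unknown. Over the 293 microRNAs tested, 17 of the 18 libraries correlated best, on average, with libraries of their own type. The exception was the library labelled cuSCC of mouse 10, with a mean r of 0.41 to PAP and -0.12 to the other cuSCC. The tests of miR-210 that use it are given with and without it, and calls of other microRNAs that end without it are named. miR-205-5p, a marker of squamous epithelium, stood between 17.37 and 18.47 in every library, among the most abundant entries.

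The question of the design was what changes from UV-damaged skin through the papilloma to carcinoma. miR-210-3p was among the microRNAs that rose most in both kinds of lesion, whereas miR-210-5p rose in papillomas and its difference in cuSCC did not pass the test. Both arms were highest on average in PAP. The order of miR-210-3p was CHR, cuSCC, PAP, from 7.90 ± 0.41 (SD, n = 6) through 10.29 ± 0.58 to 11.06 ± 0.57. As geometric means of the normalized values, these are 238.3, 1251 and 2138 ppm, which rank the sample types but do not give shares of reads.

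In CHR, miR-210-3p stood at 8.07 in mouse 2, 8.49 in mouse 3, 7.25 in mouse 7, 7.97 in mouse 8, 7.88 in mouse 9 and 7.72 in mouse 10. In PAP the same mice gave 10.12, 10.96, 11.28, 10.89, 11.28 and 11.85. In cuSCC they gave 10.36, 10.19, 9.88, 9.64, 10.36 and 11.32. Every lesion of either type was above every CHR sample, the nearest being the cuSCC of mouse 8 at 9.64 against the CHR of mouse 3 at 8.49. PAP and cuSCC overlapped, with the PAP of mouse 2 below the cuSCC of mice 2, 3, 9 and 10.

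**Figure D1:**
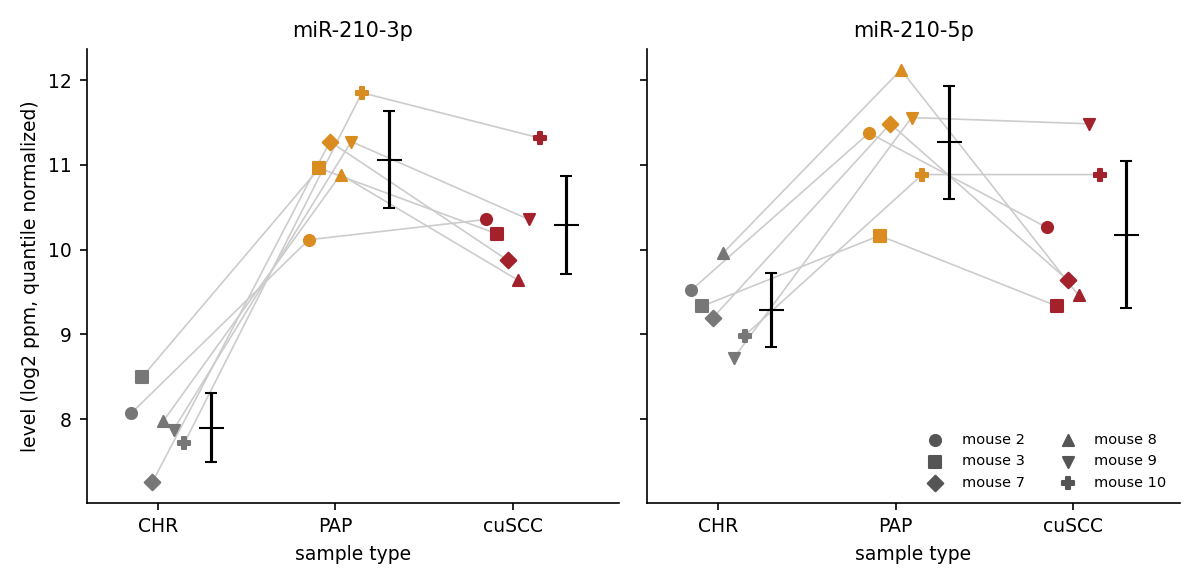
Levels of miR-210-3p (left) and miR-210-5p (right) in log2 ppm for each mouse (symbols, joined by grey lines) in CHR, PAP and cuSCC, with the mean and SD of 6 mice beside each type. All 12 lesions lie above the 6 CHR samples for miR-210-3p (at most 8.49 in CHR and at least 9.64 in lesions), while miR-210-5p in cuSCC (9.33 to 11.49) reaches down into the range of CHR (8.72 to 9.96).

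The rank of miR-210-3p among the entries of a library moved in the same way. It was the 114th to 149th most abundant entry in CHR, the 51st to 80th in PAP and the 61st to 88th in cuSCC. Libraries that tie in rank tie in value, as the PAP of mice 7 and 9 did at 11.28, where miR-210-3p was in both the 62nd entry.

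Against CHR, miR-210-3p was higher in PAP by 3.17 on the log2 scale, or 8.97-fold (standard error 0.31, 95% interval 2.50 to 3.84, limma adjusted p = 1.02e-05). Of the 293 microRNAs tested, 95 (32.4%) were called at an adjusted p under 0.05, 41 of them as higher in PAP (14%) and 54 as lower, and 19 (6.48%) had every PAP sample above every CHR sample. With undetected values at the lowest detected value of their library, 63 were called higher and 37 lower. By size, the rise of miR-210-3p was the 8th of all tested, and by p it stood 5th among changes in either direction. It was higher in 6 of 6 mice, by 2.05 to 4.14 within a mouse. The number of detected entries was lower in PAP, with a mean of 210.3 against 272 in CHR. With this number as a covariate, chosen after seeing the data, the difference was 2.98 (limma adjusted p = 0.000275). Among PAP, mouse 10 had the fewest detected entries (163) and the highest miR-210-3p, mouse 8 the most (281) and the second lowest level, and mouse 2 had 234 and the lowest level. Among cuSCC, mouse 10 had the fewest (236) and the highest level, whereas among CHR mouse 7 had the fewest (200) and the lowest level.

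In cuSCC, miR-210-3p was 2.39 above CHR, or 5.25-fold (standard error 0.32, 95% interval 1.71 to 3.08, limma adjusted p = 7.75e-05). It was higher in 6 of 6 mice, by 1.67 to 3.60. In this comparison 124 of the 293 microRNAs were called (42.3%), 59 of them as higher (20.1%), and 29 (9.9%) had every cuSCC above every CHR sample. The rise was the 14th by size. Without the cuSCC of mouse 10 it was 2.19 (limma adjusted p = 5.81e-05). Both comparisons use the same 6 CHR libraries, so they are not independent of each other.

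Between the lesions, miR-210-3p was lower in cuSCC than in PAP by a difference of -0.77 (standard error 0.35, 95% interval -1.53 to -0.01), which did not pass (limma unadjusted p = 0.0463, adjusted p = 0.169). In this comparison 34 of the 293 microRNAs were called (11.6%), 7 of them as lower in cuSCC (2.39%) and 27 as higher (9.22%). With undetected values at the lowest detected value of their library this balance turned, with 62 called lower and 18 higher. Within mice, the cuSCC was below the papilloma in 5 of 6 and above it by 0.24 in mouse 2 (exact sign-flip test, p = 0.0625). Without the cuSCC of mouse 10, the difference was -0.98 (limma adjusted p = 0.0539), and with the number of detected entries as a covariate it was -0.29 (limma adjusted p = 0.817). With mouse as a block it did not pass either (limma unadjusted p = 0.0390, adjusted p = 0.158).

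**Figure D2:**
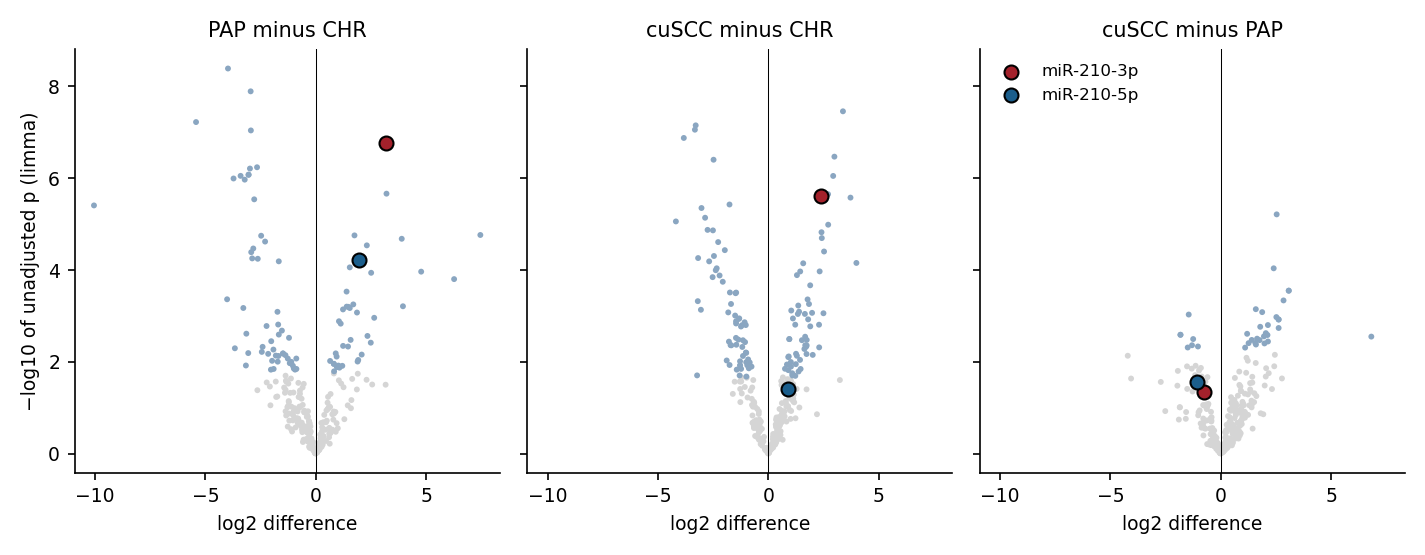
Each point is 1 of the 293 microRNAs tested, with its log2 difference between the sample types named above the panel on the x axis and −log10 of the unadjusted limma p on the y axis. Blue points have an adjusted p under 0.05. miR-210-3p (red) lies to the right of 0 against CHR, at 3.17 in PAP and 2.39 in cuSCC, miR-210-5p (dark blue) at 1.98 and 0.89, and both lie left of 0 between cuSCC and PAP.

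miR-210-5p, the opposite arm and usually the minor product of the hairpin, was the more abundant arm in CHR. There it stood at 9.52 in mouse 2, 9.33 in mouse 3, 9.19 in mouse 7, 9.96 in mouse 8, 8.72 in mouse 9 and 8.99 in mouse 10. In PAP the same mice gave 11.38, 10.17, 11.49, 12.12, 11.56 and 10.89, all above every CHR sample. In cuSCC they gave 10.26, 9.33, 9.64, 9.46, 11.49 and 10.89, and the samples of mice 3, 7 and 8 lay within the range of CHR.

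The means were 9.29 ± 0.43 in CHR, 10.18 ± 0.86 in cuSCC and 11.27 ± 0.67 in PAP (SD, n = 6). PAP was above CHR by 1.98, or 3.94-fold (standard error 0.34, 95% interval 1.25 to 2.71, limma adjusted p = 0.000666), in 6 of 6 mice. This was the 18th largest rise of the 293. The difference of cuSCC from CHR was 0.89, or 1.85-fold (standard error 0.39, 95% interval 0.06 to 1.73), and did not pass (limma unadjusted p = 0.0382, adjusted p = 0.0777). Mouse 9 contributed most to it: without that mouse it was 0.52 (limma adjusted p = 0.266). Without the cuSCC of mouse 10 it was 0.75 (limma adjusted p = 0.133). From PAP to cuSCC the difference was -1.09 (standard error 0.44, 95% interval -2.04 to -0.14), which did not pass either (limma unadjusted p = 0.0282, adjusted p = 0.132). Without the cuSCC of mouse 10 it was -1.23 (limma adjusted p = 0.0821). The carcinoma was below the papilloma in 5 mice and level with it in mouse 10, where both samples stood at 10.89.

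The arms were also compared within each library. The values follow ranks after quantile normalization, so an equal change of both arms in reads need not leave their difference unchanged. The level of miR-210-3p minus that of miR-210-5p was negative in 6 of 6 CHR samples, from -1.99 to -0.84 on the log2 scale. In the CHR of mouse 8, the 3p arm was at 0.251 of the level of the 5p arm. In PAP the difference ranged from -1.26 to 0.97 and was above 0 in mice 3 and 10. In cuSCC it was above 0 in 5 of 6 samples, from 0.09 to 0.85, and at -1.13 in mouse 9. Levels of arms with different sequence need not be captured alike, so the change between sample types is the quantity of interest.

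That change was 1.502 between cuSCC and CHR, from -1.39 ± 0.51 to 0.11 ± 0.67 (SD, n = 6; exact permutation test, two-sided, p = 0.00649, adjusted p = 0.0195 over 3 comparisons). Between PAP, at -0.20 ± 0.95, and CHR it was 1.19 (exact permutation test, p = 0.0216, adjusted p = 0.0325). Between cuSCC and PAP it was 0.32 (exact permutation test, p = 0.519). Without the library labelled cuSCC of mouse 10 the changes of cuSCC were 1.44 against CHR (exact permutation test, adjusted p = 0.026) and 0.25 against PAP. With the samples paired by mouse, the changes from CHR had an unadjusted p of 0.0312 in PAP and 0.0625 in cuSCC (exact sign-flip test, adjusted p = 0.0938 for both). The smallest p that 6 pairs allow is 0.0312, so after adjustment over 3 comparisons a single change could not pass. The change from CHR was positive in 5 of 6 mice in cuSCC and in 6 of 6 in PAP. With mouse 7 or mouse 10 left out, the change in cuSCC no longer passed (adjusted p = 0.0714 for either by the exact permutation test), nor did that in PAP without mouse 3 or 9 (0.0595 for either), mouse 10 (0.0952) or mouse 7 (0.119).

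Among 67 hairpins with both arms tested, the 5p arm was on average above the 3p arm in 34 in CHR, miR-210 among them. Which arm is usually the minor product of the other hairpins was not considered. Fitted with limma over these hairpins, a test chosen after seeing the data, the shift of miR-210 towards the 3p arm in cuSCC was the 5th largest (1.502, standard error 0.38, adjusted p = 0.00636). In that comparison 28 of the 67 hairpins were called (41.8%), in either direction. Without the cuSCC of mouse 10 the shift was 1.44 and again the 5th largest (limma adjusted p = 0.00873). In PAP it was the 6th largest, at 1.19 with a standard error of 0.47, and fell short of the threshold (limma adjusted p = 0.163). There, 5 hairpins were called (7.46%). Between cuSCC and PAP it was 0.32 (limma adjusted p = 0.825), with 3 hairpins called (4.48%), and 0.25 without the cuSCC of mouse 10 (limma adjusted p = 0.842).

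**Figure D3:**
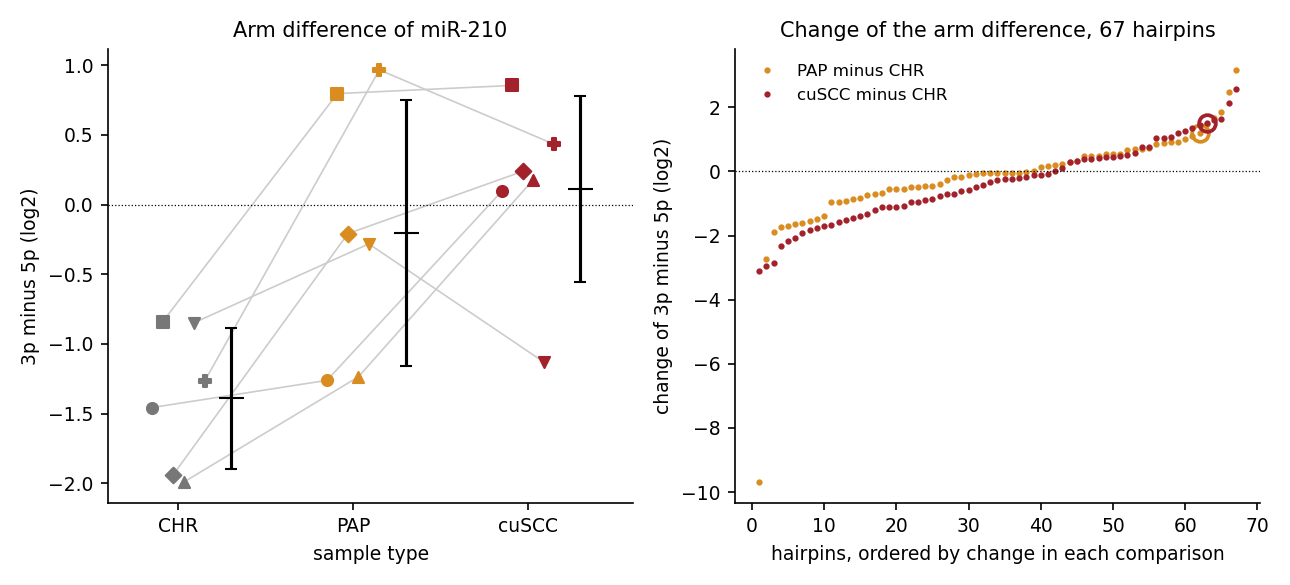
Left, miR-210-3p minus miR-210-5p (log2) for each mouse in each sample type, with the mean and SD of 6 mice. Right, the change of the same arm difference against CHR for 67 hairpins in order, with miR-210 circled. The 6 CHR samples lie at -0.84 or lower and 5 of 6 cuSCC samples above 0. miR-210 stands near the upper end, at 1.19 in PAP and 1.502 in cuSCC.

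Other microRNAs with a place in the hypoxia response were taken as 2 lists. The first held 14 arms of families that have been described as raised by hypoxia, namely miR-23, 24, 26, 27, 103, 107 and 181, and all 14 were tested. In PAP, 3 of them were called higher and 3 lower, beside 14% and 18.4% of all microRNAs tested, and the median difference from CHR was 0.24 against -0.23 over all. In cuSCC, 3 were called higher and 0 lower, beside 20.1% and 22.2%, with a median of -0.03 against 0.11. Between cuSCC and PAP 0 of the 14 were called by limma, beside 11.6% of all microRNAs tested, with a median of -0.14 against 0.21. The largest differences there were 1.43 for miR-181a-1-3p, 0.95 for miR-181a-5p and -0.79 for miR-181d-5p (limma adjusted p = 0.132, 0.252 and 0.350).

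Those called higher in PAP were miR-27b-3p, by 1.05 from 15.19 ± 0.14 to 16.24 ± 0.50 (limma adjusted p = 0.00851), miR-27a-3p, by 0.95 (limma adjusted p = 0.0313), and miR-24-3p, by 0.83 (limma adjusted p = 0.0497). These 3 arms come from the miR-23/27/24 clusters, whose miR-23a-3p and miR-23b-3p differed by -0.05 and 0.24 (limma adjusted p = 0.915 and 0.643). miR-24-3p was near the threshold and did not pass without mouse 2, 3, 7 or 8 or the PAP of mouse 10, nor did miR-27a-3p. With mouse as a block miR-24-3p did not pass (limma adjusted p = 0.0761), and with the number of detected entries as a covariate all 3 did not pass (limma adjusted p = 0.0985 for miR-27b-3p, 0.218 for miR-27a-3p and 0.246 for miR-24-3p).
Those called lower in PAP were all of the miR-181 family, which is abundant in lymphocytes and other tissues. miR-181a-5p differed by -2.01, from 17.90 ± 0.96 to 15.89 ± 1.12 (limma adjusted p = 0.0189), miR-181a-1-3p by -1.81 (0.0306) and miR-181b-5p by -1.37 (0.0304). These calls depended on which mice were in the fit. miR-181b-5p did not pass without any 1 of mice 2, 3, 7, 8 and 9, miR-181a-1-3p without mouse 2, 8 or 9 or with mouse as a block (limma adjusted p = 0.0532), and miR-181a-5p without mouse 3, 7 or 8. None of the 3 passed with the covariate (limma adjusted p = 0.0814 for miR-181a-5p, 0.262 for miR-181a-1-3p and 0.201 for miR-181b-5p).
In cuSCC the arms called higher were miR-26b-5p, by 1.04 from 9.37 ± 0.28 to 10.41 ± 0.24 (limma adjusted p = 0.00476), miR-27b-3p, by 0.91 (0.038), and miR-26a-5p, by 0.76 (0.0365). miR-26b-5p kept an adjusted p under 0.05 in all 18 alternatives, whereas miR-26a-5p did so in 12 and miR-27b-3p in 11. With mouse as a block neither of these passed (limma adjusted p = 0.0798 and 0.0719). miR-26a-5p was also lost without mouse 2, 3, 7 or 8, and miR-27b-3p without mouse 2, 3, 8 or 10 and, at 0.73, without only the cuSCC of mouse 10 (limma adjusted p = 0.0664). Of these arms, only miR-27b-3p was called in both lesions, and its rises were smaller than those of miR-210-3p.

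The second list held 8 microRNAs described as acting on HIF-1α or its regulators, of which 5 were tested. miR-18a-5p was detected in 5 libraries, too few to test, and miR-20b-5p and miR-155-5p were never above the lowest value. Of the 5, 3 were called higher in PAP, beside 14% of all microRNAs tested, with a median difference of 1.87 against -0.23 over all. In cuSCC 4 were called higher, beside 20.1%, with a median of 1.90 against 0.11. By limma 0 were called lower in either lesion, beside 18.4% of all microRNAs tested in PAP and 22.2% in cuSCC. miR-31-5p, which lowers the HIF inhibitor FIH, rose by 3.21 in papillomas (limma adjusted p = 4.89e-05) and by 2.72 in carcinomas (0.000189), beside 3.17 and 2.39 for miR-210-3p. miR-17-5p, of a cluster that acts on HIF-1α itself, was higher by 2.32 in PAP (limma adjusted p = 0.000405) and 2.41 in cuSCC (0.000232). miR-429-3p, a member of the epithelial miR-200 family, was higher by 1.87 in PAP (limma adjusted p = 0.00575) and 1.25 in cuSCC (0.032), and neither passed with the covariate (limma adjusted p = 0.0631 and 0.0603). Its call in cuSCC was lost in 7 of 18 alternatives, among them mouse as a block (limma adjusted p = 0.0535), leaving out mouse 2, 3 or 10, and leaving out only the cuSCC of mouse 10 (1.04, limma adjusted p = 0.0557).
miR-322-5p, the mouse counterpart of the microRNA that lowers the scaffold protein cullin 2, was called only in the comparisons that include cuSCC. It stood at 4.19 ± 1.02 in CHR, 4.14 ± 1.07 in PAP and 6.10 ± 0.83 in cuSCC (SD, n = 6), with differences of 1.90 between cuSCC and CHR (limma adjusted p = 0.00743) and 1.96 between cuSCC and PAP (0.0394). It was detected in 13 of the 18 libraries, and neither passed once values under 100 ppm were set to 100 ppm (limma adjusted p = 0.435 and 0.519). The call between cuSCC and PAP held in 8 of 19 alternatives. It was lost without mouse 2, 3, 7, 8 or 9 and without the PAP of mouse 10, and the difference was 0.45 with undetected values at the lowest detected value of their library (limma adjusted p = 0.531). miR-199a-5p, which acts on HIF-1α and comes mainly from fibroblasts and smooth muscle, differed by -2.22 in PAP (limma adjusted p = 0.0778) and 0.55 in cuSCC (0.484) from CHR, and by 2.77 between cuSCC and PAP (0.117), where miR-429-3p differed by -0.62 (0.368).

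**Figure D4:**
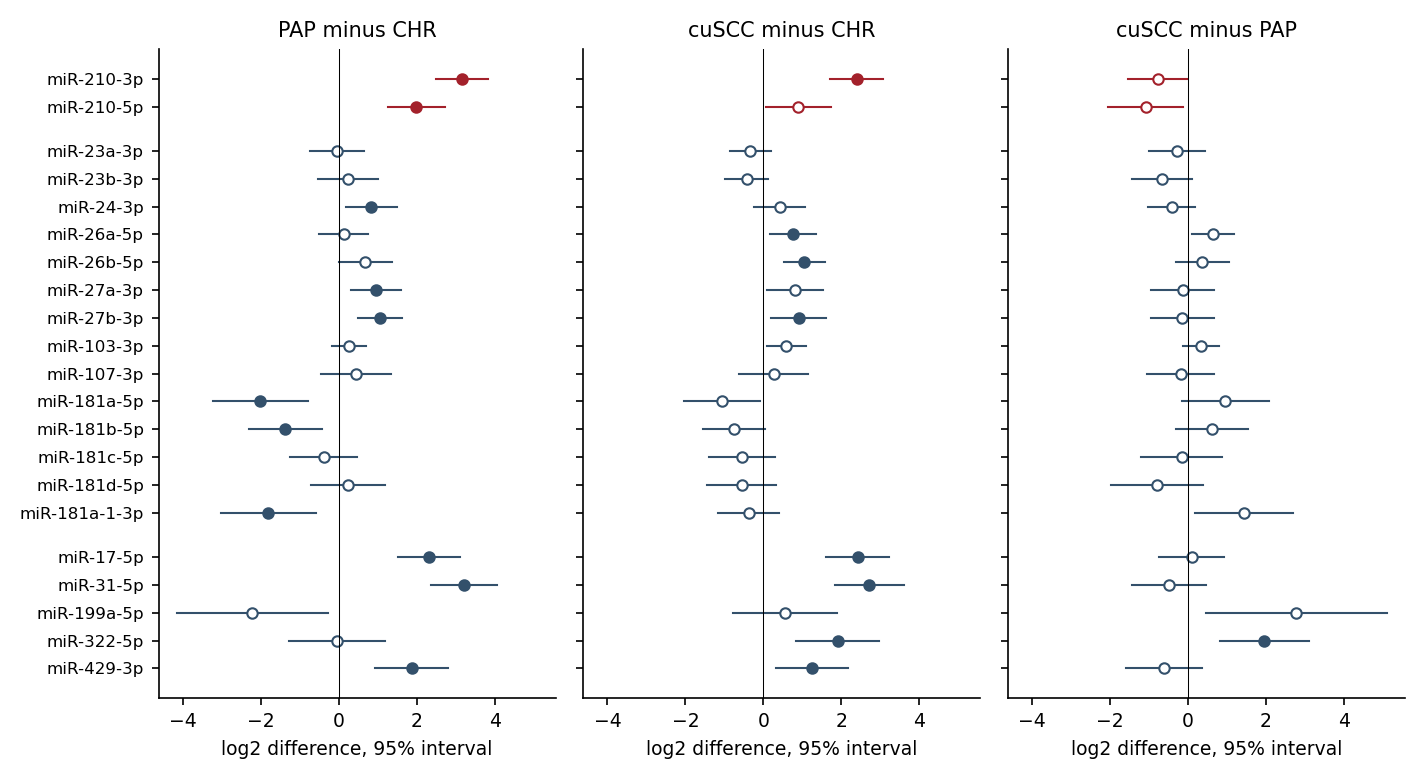
Log2 differences with 95% intervals from limma for the miR-210 arms (red) and, in dark blue, 14 arms of hypoxia-regulated families and 5 tested microRNAs described as acting on HIF-1α or its regulators. Filled points have an adjusted p under 0.05. Against CHR, miR-210-3p (3.17 and 2.39), miR-31-5p (3.21 and 2.72) and miR-17-5p (2.32 and 2.41) lie farthest to the right in both lesions. In the comparisons with CHR, the 14 arms of the upper list lie between -2.01 (miR-181a-5p in PAP) and 1.05 (miR-27b-3p in PAP).

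Likeness to miR-210-3p was measured as Pearson's r over the 18 libraries among the microRNAs tested. The 5 most alike were miR-138-5p (r = 0.903), miR-93-5p (0.892), miR-182-5p (0.878), miR-125b-1-3p (0.877) and miR-17-5p (0.875), where the median over the tested microRNAs was -0.10. The 18 libraries come from 6 mice and fall into sample types, so these values mostly describe a shared rise from CHR to the lesions. After removal of the mean of each type, the r values were 0.526, 0.474, 0.27, 0.761 and 0.462. miR-125b-1-3p was then the most alike of all. Without the cuSCC of mouse 10, the same 5 were the most alike, with r from 0.867 to 0.897 over 17 libraries, and their values after removal of the type means were 0.498, 0.237, 0.227, 0.66 and 0.433.
The opposite arm miR-210-5p came only 14th in this order (r = 0.761 over 18 libraries) and had an r of 0.282 after removal of the type means, or 0.757 and 0.148 without the cuSCC of mouse 10. The papillomas show how the arms parted. Mouse 10 had the highest miR-210-3p and, at 10.89, the second lowest miR-210-5p, whereas mouse 8 had the highest miR-210-5p at 12.12 and, at 10.89, the second lowest miR-210-3p.
Levels of the 5 differed widely. miR-182-5p, one of the most abundant entries, stood at 14.99 ± 0.33 in CHR, 16.75 ± 0.44 in PAP and 16.57 ± 0.48 in cuSCC (SD, n = 6). miR-138-5p went from 4.69 ± 1.11, with 4 of 6 CHR libraries above the lowest value, to 8.59 ± 1.10 and 8.42 ± 0.75. miR-93-5p went from 11.01 ± 0.29 to 12.55 ± 0.51 and 12.13 ± 0.44. All 5 had a higher mean in both lesions, and of the 5 only miR-17-5p had a higher mean in cuSCC than in PAP, by 0.10 (limma adjusted p = 0.857).

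**Figure D5:**
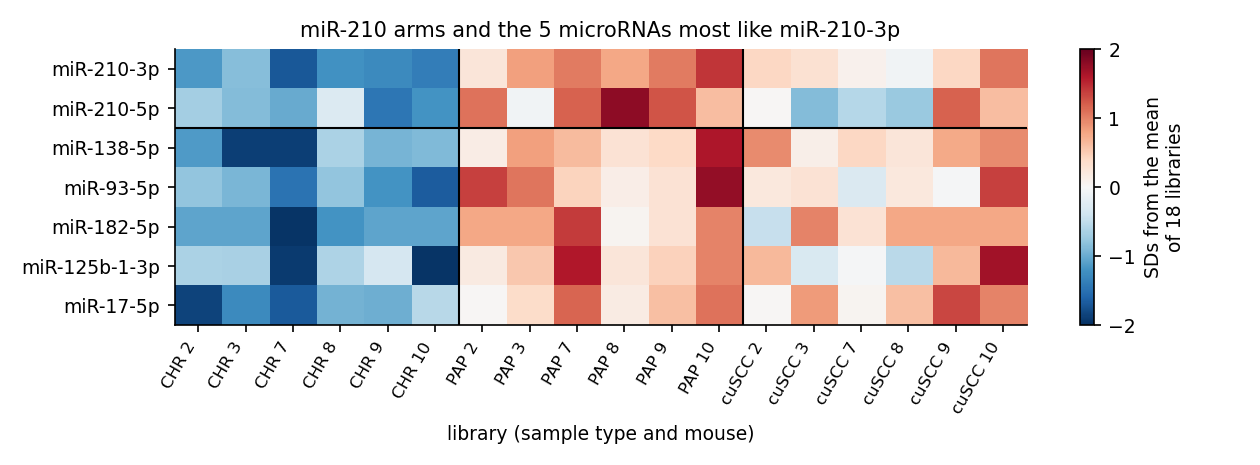
Levels of the miR-210 arms and of the 5 microRNAs with the highest r to miR-210-3p (rows) in the 18 libraries (columns, by sample type and mouse), each row scaled to SDs from its mean over the libraries. The 6 CHR columns are blue for miR-210-3p and the 12 lesion columns near white to red, with miR-210-3p reddest in the PAP of mouse 10, at 11.85, while miR-210-5p is palest among papillomas in mouse 3, at 10.17.

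MicroRNAs of other cell types also differed between the sample types, and their part in the results on miR-210 was not tested. The summed level of the epithelial list of 6, all of which were detected in all cuSCC samples, ran from 17.50 to 18.51 in CHR, from 17.77 to 18.55 in PAP and from 17.49 to 18.54 in cuSCC (log2), a sum led by miR-205-5p. Of its 6 members, 3 were called higher in PAP, beside 14% of all microRNAs tested, with a median of 1.10 against -0.23 over all. They were miR-141-3p at 1.58, miR-200c-3p at 1.24 and miR-200b-3p at 0.96 (limma adjusted p = 0.0181, 0.00516 and 0.0433). In cuSCC 2 were called higher, beside 20.1%, miR-141-3p by 1.72 and miR-200a-3p by 2.02 (limma adjusted p = 0.0165 and 0.0227), with a median of 0.69 against 0.11. miR-200a-3p was detected in 4 of 6 CHR libraries, with a mean of 5.22 ± 1.57 in CHR. Between cuSCC and PAP 1 member was called lower and 0 higher, beside 2.39% and 9.22%. It was miR-200c-3p, at 11.58 ± 0.41 in PAP and 10.13 ± 0.66 in cuSCC. The 4 microRNAs of skeletal muscle, which lies beneath mouse skin, ranged in their sum from 15.44 to 15.98 in CHR, from 5.32 to 12.45 in PAP and from 6.04 to 14.24 in cuSCC. Of these, miR-133b-3p and miR-206-3p were detected in all CHR and undetected in all PAP. miR-1a-3p was detected in only 1 of the 18 libraries and was absent from both CHR and PAP. The cuSCC of mouse 10 had the lowest muscle sum of the cuSCC, at 6.04 against 13.56 or more in the others, and the highest miR-210-3p. The PAP of mouse 2 had the highest muscle sum of the PAP, at 12.45, and the lowest miR-210-3p, at 10.12. By type, the mean muscle sum was 15.64 in CHR, 12.57 in cuSCC and 6.84 in PAP, the reverse of the order of miR-210-3p. Not every library within a type paired a lower sum with a higher miR-210-3p, and a link between them was not tested. The cuSCC of mice 2 and 9 had the highest muscle sums of the cuSCC, at 14.24 and 14.23. Both stood at 10.36 for miR-210-3p, below only mouse 10. The CHR of mouse 2 had the highest sum of the CHR, at 15.98, and a miR-210-3p of 8.07, below only mouse 3. The sum of the 4 fibroblast and smooth muscle microRNAs ranged from 14.26 to 15.01 in CHR, from 11.01 to 13.93 in PAP and from 12.49 to 15.40 in cuSCC.
Of the 5 leukocyte microRNAs, 4 were detected in all CHR samples, and the sums ran from 13.13 to 14.28 in CHR, from 9.03 to 11.82 in PAP and from 11.13 to 12.59 in cuSCC. The members did not all follow the sum. Against CHR, 2 of the 4 tested were called lower and 0 higher in PAP, beside 18.4% and 14% of all microRNAs tested. In cuSCC 2 were called lower and 1 higher, beside 22.2% and 20.1%. The mean of miR-142-5p was 8.59 in CHR, 7.58 in PAP and 10.12 in cuSCC. That of miR-150-5p was 12.45, 9.83 and 10.12, and that of miR-342-3p 12.45, 8.79 and 9.59. The sum of the 2 arms of endothelial miR-126 ranged from 7.84 to 9.35 in CHR, from 7.61 to 9.004 in PAP and from 9.26 to 11.17 in cuSCC. For the erythroid list, of which 3 of 4 names were in the table and 1 was at the lowest value in every library of each type, the sums ran from 16.70 to 17.84 in CHR, from 16.70 to 18.24 in PAP and from 14.87 to 17.87 in cuSCC. This sum was led by miR-486-5p, with means of 17.12 in CHR, 17.67 in PAP and 15.84 in cuSCC, and hid the change of miR-451a. The mean of miR-451a rose from 5.51 in CHR to 10.29 in PAP and 9.505 in cuSCC. Its r to miR-210-3p over the 18 libraries was 0.849, the 7th highest among the microRNAs tested. Centring each library on the median of the microRNAs outside all of these lists moved every log2 difference, not only those of miR-210, by the same amount. This was 0.02 in PAP against CHR, 0.08 in cuSCC against CHR and 0.06 in cuSCC against PAP. A shift common to all microRNAs concerns scaling only and cannot show what other cell types contribute to miR-210.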

How the data were processed

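Small RNA libraries of 18 samples were compared, 6 each of CHR, PAP and cuSCC from the same 6 mice. The authors removed adapter sequence and unusable reads (too short, or with a homopolymer end), matched the remainder to miRBase by BLAST, and gave each microRNA as its ppm of usable reads. The deposited values are log2 values with a lowest value of 3.32 (10 ppm), read as not detected. The log2 scale, this lowest value and the quantile normalization between libraries were read from the values. The submitters' processing notes name mm10, the same assembly as GRCm38. Normalization of this kind ties each value to its rank, so rises of some microRNAs lower others.

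The 293 entries detected in at least 6 libraries were tested pairwise between sample types with limma 3.58.1 in R 4.3.3 (two-sided, 6 against 6, moderated by eBayes) and Benjamini-Hochberg adjustment. Arm differences were compared with exact permutation tests. The mouse number in the sample titles pairs the samples, as 1 animal gave all 3 types. The mean r of same-mouse deviations from the type means was 0.03 (PAP with CHR), -0.07 (cuSCC with CHR) and 0.06 (cuSCC with PAP). The script was tested on simulated data. Sequences came from RefSeq tables, in which 1001 of 1251 entries matched by name, and the hairpin was folded with RNAfold 2.7.2.

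The members and lists were chosen with earlier results of these data known. Named microRNAs were both arms, members of the 2 hypoxia lists called in a comparison (where fewer than 3 were called, also those with the largest differences), and the 5 with the highest r to miR-210-3p. Other microRNAs of the lists were named after their values were seen. Sums of marker lists are log2 of summed linear values. Alternatives were other detection filters, fits and scalings, mouse as a block, other lowest values and leaving out mice or single libraries.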

Additional observations from a re-analysis of the deposited data

How the results depend on the processing

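The rises of miR-210-3p in PAP and in cuSCC and of miR-210-5p in PAP passed in all 19 alternatives each. In those with the thresholds of the study and with the exact sign-flip test, passing was judged on an unadjusted p. The sign-flip p was 0.0312 for each rise, the smallest that 6 pairs allow, so it could not pass an adjustment over several tests by itself. With 1 mouse left out they ranged from 2.97 to 3.39, 2.15 to 2.54 and 1.81 to 2.21. The remaining differences of the arms kept their direction, at 0.52 to 1.17 for miR-210-5p in cuSCC against CHR, and -0.98 to -0.65 and -1.31 to -0.77 for the 3p and 5p arms in cuSCC against PAP, and passed only at the thresholds of the study, a 1.5-fold change and an unadjusted p under 0.05, at 0.89, -0.77 and -1.09. Mouse as a replicate block changed no call of miR-210-3p or miR-210-5p, and ended 5 calls of the hypoxia lists, those of miR-24-3p and miR-181a-1-3p in PAP and of miR-26a-5p, miR-27b-3p and miR-429-3p in cuSCC. The arm difference did not pass with pairing by mouse, at 1.502 in cuSCC and 1.19 in PAP against CHR (exact sign-flip tests, in which 6 pairs cannot pass singly after adjustment), and in PAP neither with limma over hairpins (1.19) nor without the PAP of mouse 10 (0.95). With 1 mouse left out it ranged from 1.37 to 1.86 in cuSCC and 0.98 to 1.38 in PAP.

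The number of microRNAs called was 95 in PAP against CHR, 124 in cuSCC against CHR and 34 in cuSCC against PAP. With 1 mouse left out the counts were 55 to 79 (lowest without mouse 3), 77 to 129 (lowest without mouse 3, and 131 without the cuSCC of mouse 10 alone) and 1 to 59 (1 without mouse 3, 7 or 8). With the number of detected entries as a covariate, added after seeing the data, 45 were called in PAP against CHR and 0 in cuSCC against PAP. The last count was also 0 with the exact permutation test, 2 with no detection filter, 21 with a lowest value of 100 ppm, 80 with undetected values at the lowest detected value of their library (18 higher and 62 lower), 74 at the thresholds of the study, 15 without the PAP of mouse 10 and 51 without the cuSCC of mouse 10 (83 of 293 had an unadjusted limma p under 0.05). The depth behind the values is unknown, which limits what can be said of microRNAs near the lowest value.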
